A study of Danio rerio with 12 samples.

Results

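The genes wls, ube2q2, copb2 and si:dkeyp-73d8.9 of the zebrafish embryo are described here across 4 genotypes. They were chosen because a probe set of each moved far from wild type in embryos with a BRAF transgene, and less far or not at all when those embryos also lacked p53 function. All probe sets that the platform annotation assigns to one of these 4 symbols were taken, which gave 8 of the 15502 probe sets other than controls. There were 3 for wls, 3 for copb2, 1 for ube2q2 and 1 for si:dkeyp-73d8.9. The choice used measured values of the BRAF, BRAF;p53 and wild-type arrays, so differences among these genotypes are given for the 8 probe sets as a description, with no test.

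Total RNA of whole embryos at 80 hours post fertilization was hybridised to 12 Affymetrix zebrafish arrays, 3 for each genotype. Wild type was the Tu strain. BRAF embryos carried a stable, homozygous mitf-BRAFV600E transgene, an activated form of the kinase BRAF, with no p53 mutation named. The p53 embryos were homozygous for the M214K loss-of-function allele of p53, and BRAF;p53 embryos carried both the homozygous transgene and that allele. Embryos came from crosses within each genotype. An effect of the transgene or of the p53 allele therefore cannot be told apart from other differences between the lines. The transgene is driven by the promoter of mitf, a gene of the melanocyte lineage, which makes up a small part of a whole embryo. The labels give neither the number of embryos per RNA sample nor the clutches, and the p53 samples titled 1 and 2 are also named 1a and 1b. The replicate spread behind each p-value may therefore be partly technical. In whole embryos, fewer cells of a type and less RNA per cell cannot be told apart.

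The protein Wls (Wntless) carries lipid-modified Wnt proteins from the Golgi to the cell surface, and the retromer complex returns it for reuse. Ube2q2 belongs to the E2 enzymes, which take ubiquitin from an activating enzyme and pass it on to substrates with the help of E3 ligases. Copb2 is the beta-prime subunit of coatomer, the COPI coat that forms on Golgi membranes and returns proteins to the endoplasmic reticulum. Zebrafish mutants in coatomer subunit genes are known for defects of the notochord and of pigmentation. The gene si:dkeyp-73d8.9 carries only a clone-based name, and no role is given for it here.

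The values were log2 ratios to about each probe set's own median over the 12 arrays. A value of 0 is therefore the middle of the 12 arrays and not absence, and how bright a probe set was cannot be read from it. For the same reason no marker of the whole embryo could be checked for presence. Array medians lay between -0.036 and 0.081. BRAF replicate 1 correlated with the other BRAF arrays at 0.41 and 0.56 across probe sets, against 0.83 between those, and p53 replicate 3 with the other p53 arrays at 0.47 and 0.48, against 0.75. Wild-type arrays correlated at 0.67 to 0.77 and BRAF;p53 arrays at 0.76 to 0.84.

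The wls probe set Dr.26538.1.A1_at, called its leading probe set because it differed most between BRAF and wild type, was high on all BRAF arrays. Its log2 value was 6.60, 5.21 and 6.17 in BRAF replicates 1 to 3, and -1.19, -1.16 and -1.05 in wild type. In BRAF;p53 it was 3.29, -1.02 and 3.55. In p53 embryos it was -0.14, -0.24 and 0.13. All BRAF arrays thus lay above all others, by at least 1.66. Of the BRAF;p53 arrays, replicates 1 and 3 were close to each other and raised, and replicate 2 was 0.026 above the highest wild-type array.

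The mean difference from wild type at this wls probe set was 7.13 ± 0.93 in BRAF and 3.07 ± 0.93 in BRAF;p53 on the log2 scale (SE from limma, n = 3 per genotype). These are 140-fold and 8.42-fold. The BRAF;p53 shift was 43.1% of the BRAF shift as a mean. Without BRAF;p53 replicate 2 it was 4.56, and without BRAF;p53 replicate 3 it was 2.27. The SD of 2.57 among BRAF;p53 arrays was larger than that of 99.99% of all probe sets in this genotype, where the median SD was 0.10. In wild type the SD was 0.077, against a median of 0.121.

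The other wls probe sets, whose identifiers name another sequence cluster than the leading one, stayed within 0.6 of their medians on all 12 arrays. Dr.3546.1.S1_at had 0.42, 0.41 and 0.18 in wild type, and 0.59, -0.43 and 0.11 in BRAF. It had -0.04, -0.52 and 0.04 in BRAF;p53, and -0.55, -0.53 and -0.28 in p53 embryos. Wild-type arrays were the highest on average and p53 arrays the lowest, while BRAF arrays spanned most of this range. Dr.3546.1.S1_s_at, of the same cluster, ran from -0.10 to 0.48 in BRAF, from -0.04 to 0.03 in wild type, from -0.01 to 0.03 in BRAF;p53 and from -0.37 to -0.17 in p53 embryos. The BRAF difference from wild type was -0.25 ± 0.23 and 0.16 ± 0.13 at these probe sets (SE). Single arrays decided these small values: the first was -0.50 without BRAF replicate 1 and 0.011 without BRAF replicate 2, and the second 0.0025 without BRAF replicate 1 and 0.29 without BRAF replicate 3.

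Set against its companion on the same array, the leading wls probe set differed from Dr.3546.1.S1_at by 5.91 ± 0.23 in BRAF and by -1.47 ± 0.21 in wild type (SD, n = 3). In BRAF;p53 that difference was 2.11 ± 2.27 and in p53 embryos 0.37 ± 0.07. Within the BRAF arrays both probe sets were highest in replicate 1 and lowest in replicate 2, and within BRAF;p53 both were highest in replicate 3 and lowest in replicate 2. The order was another at Dr.3546.1.S1_s_at, which was highest in replicate 1 and lowest in replicate 3 in both genotypes. The 3 probe sets of wls therefore did not give 1 value for the gene: averaged over them, the BRAF difference from wild type was 2.35 ± 0.37 and the BRAF;p53 difference 0.86 ± 0.37 (SE).

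The gene si:dkeyp-73d8.9, measured by the single probe set Dr.3030.1.A1_at, was also high on all BRAF arrays. Its value was 4.16, 5.32 and 5.10 in BRAF, and -0.90, -0.45 and -0.38 in wild type. In BRAF;p53 it was 3.00, 0.30 and 1.18. In p53 embryos it was -1.11, -0.59 and -0.73. The BRAF;p53 arrays lay between those of BRAF and wild type without overlapping either, at least 0.68 above wild type and 1.16 below BRAF, while p53 and wild-type arrays overlapped.

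The mean difference of si:dkeyp-73d8.9 from wild type was 5.44 ± 0.54 in BRAF, 43.3-fold, and 2.07 ± 0.54 in BRAF;p53, 4.20-fold (SE, n = 3 per genotype). The BRAF;p53 shift was 38.1% of the BRAF shift. Without BRAF;p53 replicate 1 it was 1.32 and without BRAF;p53 replicate 2 it was 2.67. Replicate 2 was the lowest BRAF;p53 array here, as it was for wls, whereas the highest was replicate 1 here and replicate 3 for wls. The SD of 1.37 among BRAF;p53 arrays exceeded that of 99.96% of probe sets.

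The ube2q2 probe set Dr.24972.1.S1_at, the only one of its gene, was low on all BRAF arrays. It had -5.51, -6.36 and -6.36 in BRAF, and 0.12, -0.13 and 0.35 in wild type. In BRAF;p53 it had 0.85, 0.68 and 1.23. In p53 embryos it had -0.26, -0.89 and 0.52. BRAF arrays lay at least 4.62 below every other array, and all 3 BRAF;p53 arrays lay above all wild-type arrays, the nearest pair being 0.33 apart.

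The difference of ube2q2 from wild type was -6.19 ± 0.33 in BRAF, a 72.9-fold lower level, and 0.81 ± 0.33 in BRAF;p53 (SE, n = 3 per genotype). The BRAF difference was the lowest of all probe sets on the array, and the mean in BRAF;p53 was on the other side of wild type. BRAF replicate 1, the array that correlated least with the others of its genotype, was the highest of the BRAF arrays, and without it the difference was -6.47. The lowest value deposited for any probe set, 0.01 on the linear scale, is -6.64 in log2. BRAF replicates 2 and 3, at -6.36 each, were close to it, although no member value was at it. Whether this floor limited the size of the fall was not tested.

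The copb2 probe set Dr.14687.1.A1_at was low in BRAF as well, by less. It had -2.96, -3.71 and -4.17 in BRAF, and -1.29, 0.32 and -0.53 in wild type. In BRAF;p53 it had 0.48, 0.57 and 0.54. In p53 embryos it had 0.44, 0.45 and -0.41. The BRAF arrays lay at least 1.68 below all others. Wild-type arrays spread widely, with an SD of 0.80 that exceeded that of 99.5% of probe sets in wild type, while the BRAF;p53 arrays were within 0.091 of each other.

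The difference of this copb2 probe set from wild type was -3.12 ± 0.40 in BRAF, 8.67-fold lower, and 1.03 ± 0.40 in BRAF;p53 (SE, n = 3 per genotype). The BRAF difference ranked 11th among the falls over all probe sets. It was -3.51 without wild-type replicate 1 and -2.71 without wild-type replicate 2, and the BRAF;p53 difference was 0.64 and 1.44 in the same order.

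The identifiers of the remaining copb2 probe sets name a common sequence cluster, which is not that of the leading one. Dr.14625.1.A1_at had 0.16, -0.19 and -0.10 in BRAF, and -0.45, 0.05 and -0.05 in wild type. It had -0.06, -0.13 and 0.12 in BRAF;p53, and 0.18, 0.11 and 0.20 in p53 embryos. Dr.14625.1.A1_s_at lay between -0.42 and 0.26 on all 12 arrays. The BRAF difference from wild type was 0.11 ± 0.14 and -0.03 ± 0.15 at these probe sets (SE). The first was -0.04 without wild-type replicate 1, and the second ran from -0.16 to 0.07 when single arrays were left out. On the same array the leading probe set differed from Dr.14625.1.A1_at by -3.57 ± 0.47 in BRAF and by -0.35 ± 0.56 in wild type (SD, n = 3). Averaged over the 3 probe sets of copb2 the BRAF difference was -1.01 ± 0.20 (SE). Both genes with more than 1 probe set thus had a large BRAF difference at 1 probe set and differences of at most 0.25 in size at the others.

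**Figure D1:**
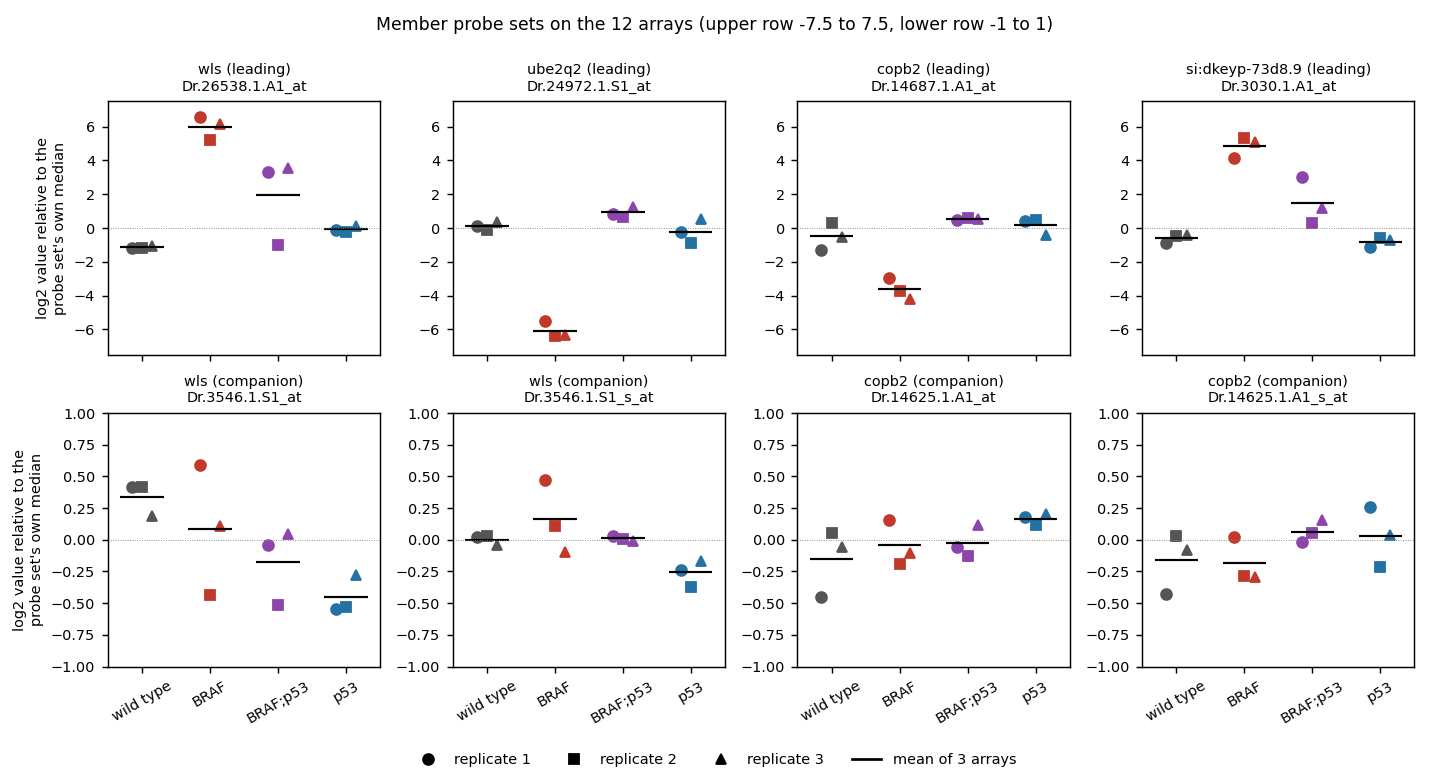
Log2 values of the 8 probe sets on the 12 arrays, relative to each probe set's own median, by genotype; symbols mark replicate numbers, black lines the mean of 3 arrays. The upper row, on a wider axis, holds the leading probe sets, with BRAF arrays apart from all others, and the lower row the companions, none of which passes 0.6 in size.

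In the comparison of BRAF with wild type, the arrays did not overlap for the 4 leading probe sets and overlapped for the 4 companions. Over all 15502 probe sets 28.4% did not overlap in this comparison and 6.41% passed the limma test (adjusted p under 0.05). In the comparison of BRAF;p53 with wild type the arrays did not overlap for 5 of the 8, the leading probe sets and Dr.3546.1.S1_at of wls, against 25.3% of all probe sets. The members were chosen on these comparisons, so nothing is read from their counts. The rule states no threshold. Of all probe sets, 10 differed between BRAF and wild type by at least 4 on the log2 scale, and in 5 of these the BRAF;p53 difference was under 0.5 of the BRAF difference. Those 5 were the leading probe sets of wls, ube2q2 and si:dkeyp-73d8.9, a probe set without a gene symbol, Dr.7728.1.A1_at (-4.54 in BRAF, -0.64 in BRAF;p53), and that of rnf13 (-4.32 and -1.48). The leading copb2 probe set, at -3.12, ranked 20th by size.

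**Figure D2:**
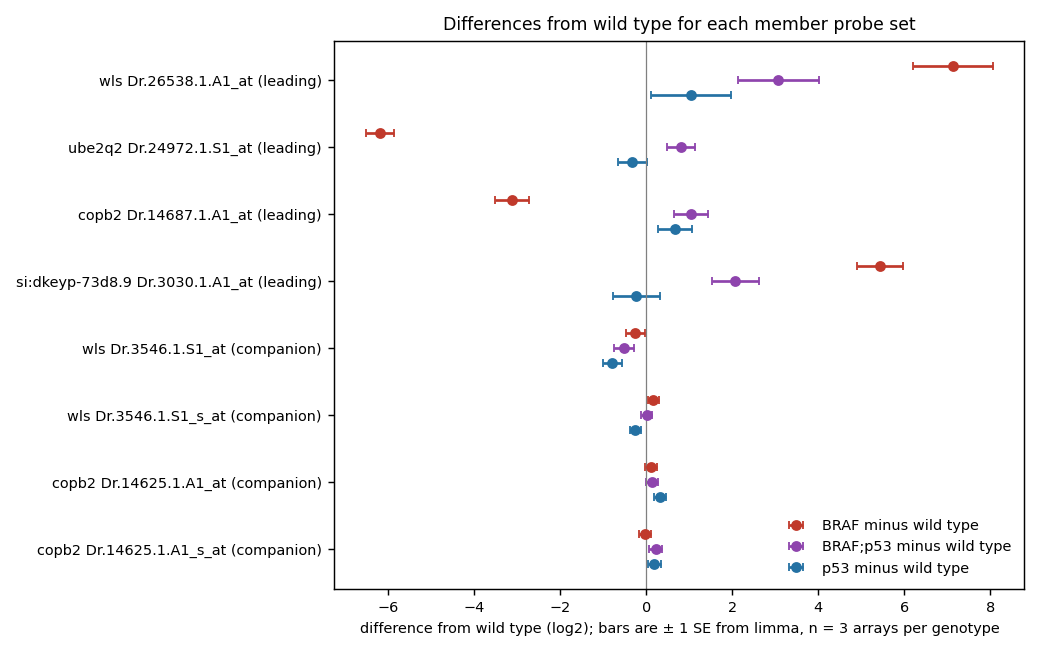
Difference from wild type on the log2 scale for the 8 probe sets in BRAF, BRAF;p53 and p53 embryos; points are limma estimates and bars ± 1 SE, n = 3 arrays per genotype. The 3 comparisons share the wild-type arrays. BRAF estimates of the leading probe sets run from -6.19 to 7.13, and those of the companions from -0.25 to 0.16.

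The comparison of p53 with wild type set embryos that lacked p53 function, and had no transgene, beside the Tu strain. The rule that chose the genes does not name the p53 arrays, but it used the wild-type arrays. The genes were also chosen with earlier results of these data known. These p-values are therefore not independent of the choice, and little change in p53 embryos may be part of it. None of the 8 probe sets passed (limma adjusted p under 0.05), against 1.83% of all probe sets, and 2 of the 8 had an unadjusted limma p under 0.05, beside 14.3% of all probe sets. The difference was 1.05 ± 0.93 for the leading wls probe set (limma adjusted p = 0.677), -0.32 ± 0.33 for ube2q2 (limma adjusted p = 0.724), 0.66 ± 0.40 for the leading copb2 probe set (limma adjusted p = 0.498) and -0.23 ± 0.54 for si:dkeyp-73d8.9 (limma adjusted p = 0.902). For ube2q2 the sign turned without p53 replicate 2, where the difference was 0.02. For the leading copb2 probe set it was 0.27 without wild-type replicate 1 and 1.07 without wild-type replicate 2.

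At wls the p53 and wild-type arrays nevertheless did not overlap at any of the 3 probe sets, and the direction was not the same at all of them. The leading probe set was higher in p53 embryos on 3 of 3 arrays, whereas Dr.3546.1.S1_at was -0.79 ± 0.23 (limma adjusted p = 0.126) and Dr.3546.1.S1_s_at -0.26 ± 0.13 (limma adjusted p = 0.39). In all, the arrays did not overlap for 4 of the 8 probe sets, and for 19.1% of all probe sets. The fourth was Dr.14625.1.A1_at of copb2, at 0.32 ± 0.14 (limma adjusted p = 0.322). The SE of 0.93 at the leading wls probe set comes from 1 estimate of spread over all genotypes, BRAF;p53 included. With only the p53 and wild-type arrays fitted, the SE was 0.12 and the limma adjusted p was 0.0195, and for Dr.3546.1.S1_at the limma adjusted p was 0.0494. That probe set also passed in the fit of all genotypes without BRAF replicate 1 (limma adjusted p = 0.0434) and without both BRAF replicate 1 and p53 replicate 3 (0.0356). Without BRAF;p53 replicate 2 in the fit of all genotypes the wls difference had an SE of 0.28 and a limma adjusted p of 0.131.

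Embryos with and without the transgene were also compared within each p53 state, as the BRAF;p53 minus p53 difference and the BRAF minus wild-type difference. For the leading wls probe set these were 2.02 ± 0.93 and 7.13 ± 0.93 (SE), and for si:dkeyp-73d8.9 they were 2.30 ± 0.54 and 5.44 ± 0.54. The mean shift thus had the same sign in both backgrounds, although the BRAF;p53 and p53 arrays overlapped at wls. For ube2q2 they were 1.13 ± 0.33 and -6.19 ± 0.33, of opposite sign. For the leading copb2 probe set they were 0.37 ± 0.40 and -3.12 ± 0.40. The copb2 difference without p53 function was smaller than its SE, so its sign is not settled. The interaction, the first less the second, was -5.11, -3.13, 7.32 and 3.49 in that order of genes. The members were chosen for this pattern and are not tested on it. Over all probe sets 3.21% passed the limma test of the interaction, and 3 of the 101 probe sets of related pathway genes did, all of E2 enzyme genes (ube2d2, ube2g1b and ube2l3a). Without both BRAF replicate 1 and p53 replicate 3 it was 15 of 101, beside 9.48% of all probe sets, and without p53 replicate 3 alone 6 of 101, beside 5.08%.

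Genes listed beside wls for Wnt secretion and recycling differed between BRAF and wild type by at most 0.45 in size, the value of sfrp1a. Of 13 measured genes of Wnt secretion and recycling on 15 probe sets, none passed in BRAF, in BRAF;p53 or in p53 embryos against wild type (limma adjusted p under 0.05), with 2, 1 and 2 of the 15 at an unadjusted p under 0.05. Over all probe sets 21.1%, 13.0% and 14.3% had such an unadjusted p in these 3 comparisons. This list held the acyltransferase gene porcnl, the retromer genes vps26a, vps29 and vps35, and the sorting nexin gene snx3. It also held sfrp1a and notum1b (-0.37 in BRAF), whose products act on Wnt proteins outside the cell and not with Wls in secretion. The median difference in BRAF was 0.03, beside 0.05 over all probe sets, and the lowest -0.43. Of 28 Wnt ligand genes listed, 10 were measured. None of these passed in any of the 3 comparisons, with 0, 0 and 1 at an unadjusted p under 0.05. Of 30 genes listed for Wnt targets and feedback, such as axin2, lef1 and sp5l, 16 were measured on 19 probe sets. None of these passed either, with 3, 0 and 1 at an unadjusted p under 0.05. That list also held core components of the pathway, such as ctnnb1, gsk3ba, axin1 and tcf7l2, so it is not a list of targets alone. In BRAF the ligands ran from -0.21 to 0.17. The list of targets and feedback ran from -0.51, the value of tcf7l2, to 0.14.

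Genes of the subunits that form the COPI coat with Copb2 differed between BRAF and wild type by at most 0.22 in size. Of 8 measured subunit genes on 11 probe sets none passed in BRAF, BRAF;p53 or p53 embryos against wild type, with 0, 1 and 0 of the 11 at an unadjusted limma p under 0.05, beside 21.1%, 13.0% and 14.3% of all probe sets. The alpha subunit gene copa had 0.22 ± 0.12 and 0.12 ± 0.10 in BRAF, and the beta subunit gene copb1 -0.02 ± 0.12. The delta subunit genes arcn1a and arcn1b had -0.11 and 0.11. The epsilon subunit gene cope had -0.16, the zeta subunit genes copz1 and copz2 -0.06 and 0.05, and the 3 probe sets of the gamma subunit gene copg2 -0.13 to -0.04. The median over this list was -0.04 in BRAF.

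Over all probe sets 6.41% passed in BRAF. Of 20 Arf cycle and retrieval receptor genes listed, 5 were measured, and 1 of their 6 probe sets passed. That was kdelr2a, which encodes a receptor that COPI vesicles carry back with escaped endoplasmic reticulum proteins. It fell by 0.99 ± 0.20 (limma adjusted p = 0.014), with -0.81, -0.80 and -0.35 in BRAF and 0.16, 0.35 and 0.51 in wild type, in ascending order. Its other probe set had -0.20 (limma adjusted p = 0.473). Leaving out single arrays kept the call in 9 of 12 cases. It was lost without wild-type replicate 1 (limma adjusted p = 0.0593), BRAF replicate 2 (0.0544) or BRAF replicate 3 (0.0525). In BRAF;p53 the difference from wild type was -0.58 (limma adjusted p = 0.218). Against p53 embryos the BRAF;p53 difference of this probe set was -1.05 (limma adjusted p = 0.0207), and its interaction was -0.05 (limma adjusted p = 0.938). Of 9 COPII coat genes, none passed in BRAF, with 2 at an unadjusted p under 0.05. Their BRAF differences ran from -0.99 to 0.19, with a median of 0.07. The lowest was sec31a, which had -0.81 in BRAF;p53 and -0.68 in p53 embryos and passed in none of the 3 comparisons. In BRAF;p53 preb, whose product activates the small GTPase that starts COPII assembly, fell by 0.50 ± 0.09 (limma adjusted p = 0.0152). Leaving out single arrays kept that call in 8 of 12 cases. It was lost without wild-type replicate 1 or 3 or BRAF;p53 replicate 2 or 3, the highest limma adjusted p being 0.0712.

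Of the 31 probe sets of 26 measured genes of the E2 family (ube2 symbols) other than ube2q2, 1 passed in each of the 3 comparisons with wild type. Over all probe sets 6.41%, 1.95% and 1.83% passed in BRAF, BRAF;p53 and p53 embryos. In the same order, 7, 5 and 8 of the 31 had an unadjusted limma p under 0.05, beside 21.1%, 13.0% and 14.3% of all probe sets. The E2 gene that passed in BRAF was ube2d2, an E2 of broad use. It rose by 1.47 ± 0.23 (limma adjusted p = 0.00281) and passed whichever array was left out. In ascending order its arrays had 1.09, 1.29 and 1.51 in BRAF and -0.41, -0.26 and 0.13 in wild type, with no overlap. In BRAF;p53 it had -0.61, -0.03 and 0.03, overlapping wild type, and a difference of -0.03 (limma adjusted p = 0.9995).

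In BRAF;p53 the E2-like gene ube2ql1 rose by 0.57 ± 0.10 at Dr.17810.1.A1_at (limma adjusted p = 0.0108), while its other probe set had 0.20 (limma adjusted p = 0.878). In p53 embryos ube2g1b rose by 0.81 ± 0.16 at Dr.21870.1.A1_at (limma adjusted p = 0.0324), while its other probe set had -0.01. Leaving out single arrays kept the ube2g1b call in 4 of 12 cases, and the limma adjusted p was highest, at 0.116, without wild-type replicate 2. In its BRAF;p53 arrays ube2g1b had -0.37, -0.33 and -0.27, below all p53 arrays at 0.48, 0.74 and 0.87. The median difference of the E2 list was 0.00 in BRAF, 0.04 in BRAF;p53 and -0.03 in p53 embryos.

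The lists named 150 genes, of which 87 were measured, so they do not cover these pathways in full. Over all these lists, 2 of 101 probe sets passed in BRAF, which is 1.98%, beside 6.41% of all probe sets. In BRAF;p53 2 of 101 passed, beside 1.95% of all probe sets, and in p53 embryos 1 of 101, beside 1.83%. The counts in BRAF and in p53 embryos rose when the arrays that stood apart were left out, and so did those of all probe sets. In BRAF;p53 the count stayed at 2 of 101 without BRAF replicate 1, beside 3.29% of all probe sets. It was 3 of 101 without both BRAF replicate 1 and p53 replicate 3, beside 5.91%. Without BRAF replicate 1, 5 of 101 passed in BRAF, beside 7.66% of all probe sets, and 3 of 101 in p53 embryos, beside 3.01%. Without both BRAF replicate 1 and p53 replicate 3, 10 of 101 passed in BRAF, beside 11.4%, and 9 of 101 in p53 embryos, beside 4.44%.

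**Figure D3:**
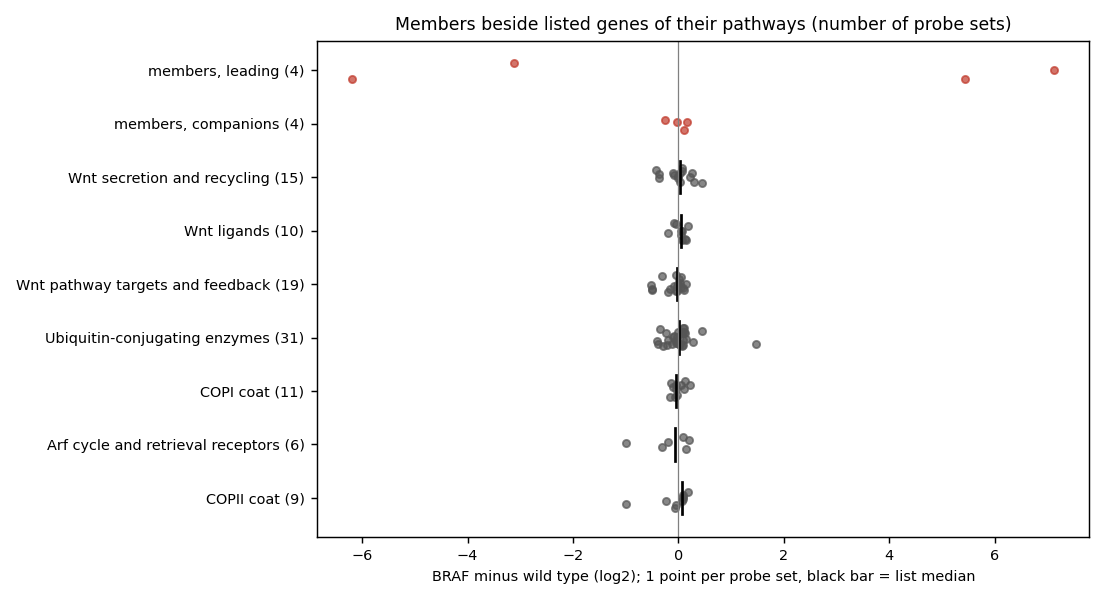
BRAF minus wild type on the log2 scale, 1 point per probe set, for the members and for the 7 lists of genes of related pathways. Black bars are list medians, and the number of probe sets stands after each name. Listed genes run from -0.99 to 1.47, between the leading probe sets that were low in BRAF, at -3.12 or below, and those that were high, at 5.44 or above.

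Genes whose pattern over the 12 arrays was most like that of each leading probe set were taken by the highest Pearson correlation among probe sets with 1 symbol. The arrays fall into genotypes, so these values describe likeness only. For wls they were krt94, pkhd1l1.2, si:dkey-247k7.2, brip1 and gpd1c, at 0.92 to 0.90. For si:dkeyp-73d8.9 they were si:dkey-247k7.2, slc37a4a, tnpo2a, laptm4a and cited4a, at 0.96 to 0.92. Spearman's rank correlations of the same pairs were lower, at 0.71 to 0.85 for wls and 0.84 to 0.89 for si:dkeyp-73d8.9. The gene si:dkey-247k7.2 stood in both sets, with a difference from wild type of 2.84 in BRAF, 1.16 in BRAF;p53 and 0.04 in p53 embryos. The keratin gene krt94 had 1.40, 0.65 and 0.32 in the same order, and the transport receptor gene tnpo2a 2.36, 0.98 and 0.54.

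For ube2q2 the most alike were lgals3b, rnf4, znhit1, prpf3 and mia2, at 0.98 to 0.96, and for copb2 mia2, prpf3, fam76b, c9 and uap1l1, at 0.95 to 0.93. The genes mia2 and prpf3 stood in both sets. Spearman's rank correlations were lower here too, at 0.43 (znhit1) to 0.83 (rnf4) for ube2q2 and 0.69 (c9) to 0.88 (fam76b) for copb2. The galectin gene lgals3b had -2.99 in BRAF, -0.07 in BRAF;p53 and -0.31 in p53 embryos. The ubiquitin ligase gene rnf4 had -1.65, 0.19 and 0.02, and the splicing factor gene prpf3 -1.20, 0.15 and 0.12. Of the 4 most alike genes with further probe sets, 3 had one that differed from wild type in the opposite direction in BRAF. The second prpf3 probe set had 0.69 in BRAF, and znhit1 had -2.53 and -1.89 at probe sets whose identifiers differ only in the ending but 0.41 and 0.76 at its others. The named slc37a4a probe set had 1.35 and its other probe set -2.48. The complement gene c9 was an exception, at -0.64, -0.69 and -0.68 on its 3 probe sets.

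**Figure D4:**
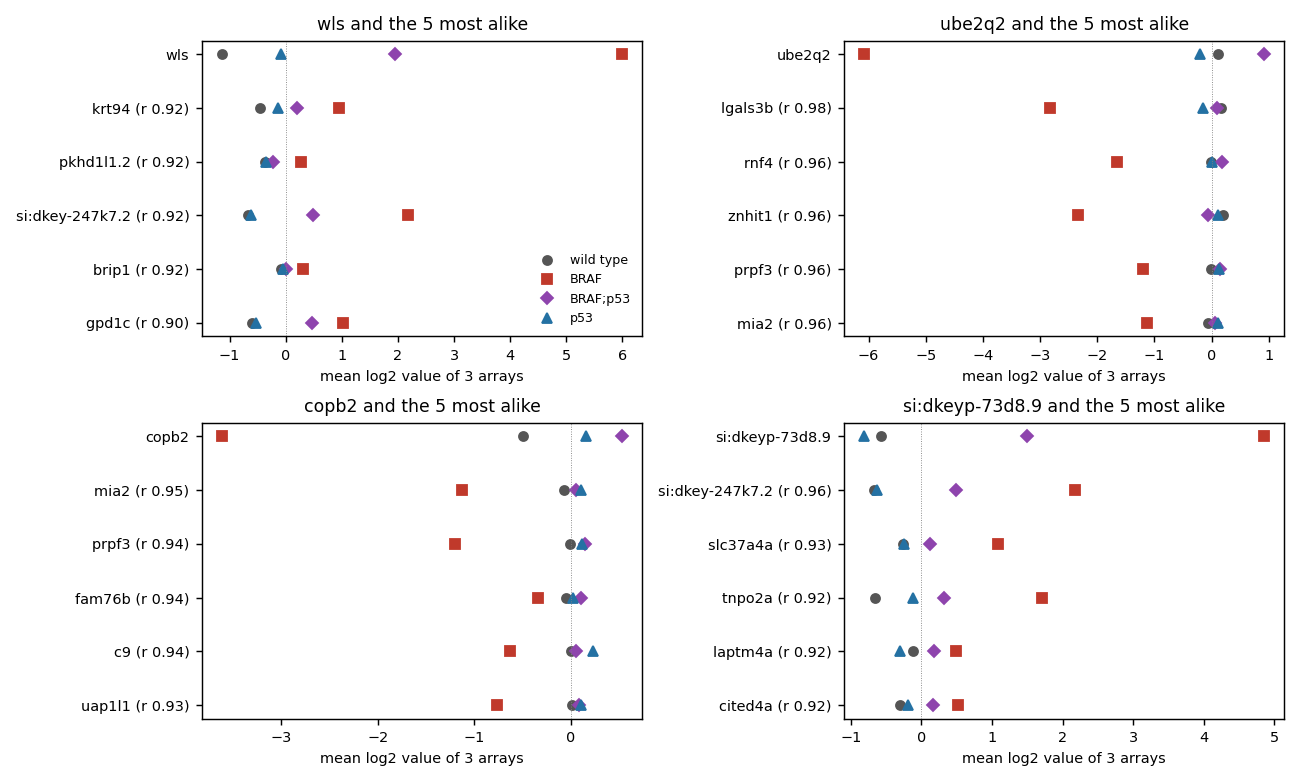
Mean log2 value of 3 arrays per genotype for each leading probe set and the 5 genes most alike over the 12 arrays, with Pearson's r. The BRAF mean is the highest or the lowest of the genotypes in each row. For wls, si:dkeyp-73d8.9 and their most alike genes the BRAF;p53 mean lies between BRAF and wild type. At gpd1c the BRAF;p53 mean of 0.47 is nearer to BRAF, at 1.01, than to wild type, at -0.60.

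In the gene order of the RefSeq assembly GRCz12tu, wls, si:dkeyp-73d8.9 and copb2 lie on the same chromosome and ube2q2 on another. They are not neighbours: 421 protein-coding genes lie between wls and si:dkeyp-73d8.9, and 143 between si:dkeyp-73d8.9 and copb2. The 3 nearest measured genes on each side of every member, a set chosen after the members' values were seen, gave 24 genes on 32 probe sets. Of these, 3 passed in BRAF against wild type (limma adjusted p under 0.05), beside 6.41% of all probe sets, and differences ran from -1.93 to 0.44 with a median of 0.02. The lowest was klhl18, the third gene after si:dkeyp-73d8.9, which fell by 1.93 in BRAF (limma adjusted p = 7.07e-05) and had -0.45 in BRAF;p53 and -0.33 in p53 embryos. The next gene after wls, scinlb, fell by 0.58 (limma adjusted p = 0.0116), and abcf2a, before si:dkeyp-73d8.9, rose by 0.44 (limma adjusted p = 0.0314). The highest difference among the 8 probe sets beside wls was 0.23.

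Markers of other tissues are set beside these results, and their part in the members' values was not tested. The mean over 13 exocrine pancreas probe sets of 11 genes lay between -0.31 and 1.34 in BRAF, between -1.67 and -1.02 in BRAF;p53, between -1.64 and 1.65 in p53 embryos and between -1.90 and 0.75 in wild type, and the difference from wild type was positive at 13 of 13 in BRAF and negative at 13 of 13 in BRAF;p53. None of the 13 passed in either comparison (limma adjusted p under 0.05), with 4 and 0 at an unadjusted p under 0.05, beside 21.1% and 13.0% of all probe sets. The 13 signs are not independent, because all the differences rest on the same arrays. Wild-type replicate 2 had a pancreas mean of -1.90, and the other wild-type arrays 0.75 and 0.20. Over 7 pigment cell probe sets of 6 genes the mean was 0.19 to 0.38 in BRAF;p53 and -0.42 to 0.12 in BRAF. It was -0.18 to 0.09 in p53 embryos and -0.21 to -0.04 in wild type. The 1 probe set that passed in BRAF;p53 was that of crestin, a transcript of the neural crest, beside 1.95% of all probe sets. Its difference was 1.22 against a list median of 0.38, and all 7 differences were positive. Over 3 lens probe sets the mean was -0.60 to -0.36 in BRAF and -0.01 to 0.09 in BRAF;p53. It was -0.15 to -0.07 in p53 embryos and 0.01 to 0.17 in wild type, so the BRAF arrays were the lowest. Of these, the lens crystallin gene cryaa fell by 1.61 ± 0.12 in BRAF (limma adjusted p = 2.82e-05), and its interaction was 1.92 ± 0.18 (limma adjusted p = 0.000218), so that it was low in BRAF as the ube2q2 and leading copb2 probe sets were. The other lens probe sets had -0.08 and -0.03 in BRAF, so cryaa carried most of the fall of the lens mean. Over 4 liver probe sets the mean was 0.02 to 0.31 in BRAF and -0.20 to -0.05 in BRAF;p53. It was 0.00 to 0.40 in p53 embryos and -0.49 to 0.03 in wild type. Of these probe sets that of fgb passed in BRAF, beside 6.41% of all probe sets.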

How the data were processed

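The 12 columns of log2 values were deposited by the authors in 1 table. The submitters' processing notes name GCRMA without a version, and the centring of each probe set is not given in the sources used here. It was read from the values: on the linear scale 13937 of 15617 probe sets, with all 8 member probe sets among them, had a median of 1 within 0.0001. Arrays have no read depth, so precision is set by the number of arrays.

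Genotypes came from the sample titles. Members were matched by the symbols of the platform annotation. Other genes are named by the RefSeq symbol of the same Entrez gene where there was one, and otherwise by the platform symbol. Probe sets with several symbols were left unnamed. All 12 arrays entered 1 linear model with a mean per genotype (limma 3.58.1 under R 4.3.3, moderated by eBayes), and p-values were adjusted by Benjamini-Hochberg over 15502 probe sets at 0.05, two-sided, without the 115 controls. The script was tested on simulated data. A filter on brightness could not be made from centred values. Probe sets with a linear median below 1 were left out as an alternative instead, which does not sort dim from bright ones.

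The members and gene lists were chosen with earlier results of these data known. Genes named beside the members are every listed gene past the threshold against wild type or in the interaction, up to 4 per list and comparison, and the 5 most alike per leading probe set; other listed genes are named as examples. Alternatives were quantile normalization, array medians set to 0, eBayes with trend and robust, the replicate number as a block, p53 samples 1a and 1b averaged, only the genotypes compared, probe sets with a linear median below 1 left out, probe sets averaged per gene, a minimum difference of 1, and each array left out.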

Additional observations from a re-analysis of the deposited data

Results flagged for a closer look

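Differences between embryos with and without the transgene were compared between p53 states by the interaction term. It is the BRAF;p53 minus p53 difference less the BRAF minus wild-type difference, and 3.21% of all probe sets passed its limma test. For ube2q2 it was 7.32 and for the leading copb2 probe set 3.49 on the log2 scale. These genes were chosen for that pattern, so the values are a description and not a test. Among the listed genes 3 probe sets passed the limma test of the interaction, at -1.75 ± 0.32 for ube2d2 (limma adjusted p = 0.0135), -1.46 ± 0.23 for ube2g1b (limma adjusted p = 0.00642) and 0.66 ± 0.13 for ube2l3a (limma adjusted p = 0.0219). Leaving out single arrays kept the ube2d2 and ube2g1b results in 12 of 12 cases and that of ube2l3a in 5 of 12, its limma adjusted p being highest, at 0.0647, without BRAF;p53 replicate 2. The other ube2g1b probe set had -0.20 (limma adjusted p = 0.488).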

How the results depend on the processing

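Of 694 values recomputed under the alternatives, 30 lost their call, 4 gained it and 49 moved by more than the spread between replicates or, for counts, by over 1.5 times. The sign turned in 7, each with 1 array left out. They were the p53 difference of ube2q2 once, and the small BRAF differences of the companions Dr.3546.1.S1_at of wls once, Dr.14625.1.A1_at of copb2 once and Dr.14625.1.A1_s_at of copb2 in 4 fits. Counts of listed probe sets that passed in BRAF, BRAF;p53 and p53 embryos against wild type and in the interaction were 4, 4, 2 and 5 after quantile normalization. That normalization also moved the BRAF differences of wls and ube2q2 to 6.09 and -5.75 and the BRAF;p53 difference of wls to 4.43. Averaging a gene's probe sets moved the BRAF and BRAF;p53 differences to 2.35 and 0.86 for wls and to -1.01 and 0.46 for copb2, and the first 3 list counts were 1, 1 and 0. With array medians set to 0 the p53 list count was 2. It was 0 with trend and robust, after the mean of p53 samples 1a and 1b was taken, and in a fit of the compared genotypes alone. In the last setting the BRAF;p53 list count was 4, 2 of the 8 member probe sets passed in p53 embryos, and the wls difference of 1.05 passed. The BRAF;p53 list count was 1 without probe sets whose linear median was below 1, and a minimum difference of 1 left list counts of 1, 0 and 0. With the 2 arrays that stood apart left out, an alternative chosen after seeing the data, 1 member probe set passed in p53 embryos, and list counts were 10 in BRAF, 9 in p53 embryos and 15 in the interaction.

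Leaving out each array in turn, 0 to 1 member probe sets passed in p53 embryos, and list counts were 1 to 5 in BRAF, 1 to 2 in BRAF;p53, 0 to 3 in p53 embryos and 2 to 6 in the interaction. The BRAF;p53 difference of wls ran from 2.27 to 4.56, and the p53 difference of ube2q2 from -0.69 to 0.017, where the sign turned. With the replicate block the member count was 0 and the list counts 2, 2, 1 and 4, within 1.5 times the reported ones. The number is all that is known to link same-numbered arrays. Deviations from the genotype means correlated at -0.32 to 0.36 between same-numbered arrays, over 0.1 in 7 of 18 pairs, with a median of 0.06. Between arrays of different number they correlated at -0.39 to 0.31, over 0.1 in 10 of 36 pairs, with a median of -0.06. The centred values hide signal over background, so a change of a dim probe set cannot be set apart from that of a bright one, and the causes of the changes above were not tested.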
